A study of Mus musculus with 8 samples.

Results

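Integrin alpha-V, its dimer partners, the alpha chain Itga5 and the kinases that act below them were examined in AML12 mouse hepatocytes treated with irisin. The members were the 10 genes of a list, namely Itgav, Itga5, Itgb1, Itgb3, Itgb5, Itgb6, Itgb8, Ptk2, Src and Ilk. They were 10 of 21612 genes named on the arrays, and every probe whose accession maps to one of them was taken, which gave 14 of 39429 probes. AML12 is an immortal line from the liver of mice that carry a transgene for transforming growth factor alpha, and it is used as a model of the hepatocyte. The 4 control samples were grown without irisin for 24 h, and the 4 irisin samples received 0.5 µg/ml irisin over the same time. Both groups were kept in DMEM F-12 medium with fetal bovine serum. No label says that the samples came from separate cultures, so the p-values measure the spread between these samples, which may be technical.

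Integrins are receptors of 1 alpha and 1 beta chain that bind the extracellular matrix and pass signals in both directions across the membrane. Alpha-V pairs with several beta chains, and its dimers bind proteins with an RGD motif such as vitronectin and fibronectin and can release active TGF-β from its latent complex. Irisin is the secreted part of Fndc5, and dimers of alpha-V, in particular with beta-5, have been proposed as its receptor. The dimers carry no enzyme of their own, and the kinases Ptk2 (focal adhesion kinase) and Src, with the adaptor Ilk, act at their cytoplasmic tails.

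The signal is a Cy3 intensity from a one-color Agilent array with 1 sample each, and each value below is a log2 signal from which the log2 of the 75th percentile on that array was subtracted. Probes differ in how well they bind, so levels of different probes were not ranked, and where 2 probes were subtracted within an array only the shift of that difference between the groups was read. That percentile was 472 ± 70.1 (SD, n = 4) without irisin and 783 ± 71.6 (SD, n = 4) with it, a log2 difference of 0.74. Each group filled 1 slide with its own scan, and the effects of slide, of scan and of treatment cannot be told apart. Albumin, Ttr, Hnf4a and the other 6 hepatocyte markers with a probe were well above background on all 8 arrays. Precision is limited by having 4 arrays in a group.

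The promoters of the chains proposed to bind irisin and of the chain that was not detected are shown here to identify these genes. They are the 250 bases before the RefSeq start on GRCm38.p6, in the direction of the gene, with GC boxes (GGGCGG on either strand) and CCAAT boxes (CCAAT on either strand) in capitals. RefSeq windows were found for 8 of 10 members, and Itgb3 and Ptk2 were not matched. Itgav lies at chr2:83724147-83724396 (plus strand), Itgb5 at chr16:33829415-33829664 (plus strand) and Itgb8 at chr12:119238277-119238526 (minus strand).
Itgav: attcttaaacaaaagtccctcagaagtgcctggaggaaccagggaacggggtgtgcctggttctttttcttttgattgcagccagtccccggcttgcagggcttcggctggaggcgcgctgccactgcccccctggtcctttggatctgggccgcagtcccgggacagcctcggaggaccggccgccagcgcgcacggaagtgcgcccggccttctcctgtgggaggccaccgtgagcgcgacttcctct
Itgb5: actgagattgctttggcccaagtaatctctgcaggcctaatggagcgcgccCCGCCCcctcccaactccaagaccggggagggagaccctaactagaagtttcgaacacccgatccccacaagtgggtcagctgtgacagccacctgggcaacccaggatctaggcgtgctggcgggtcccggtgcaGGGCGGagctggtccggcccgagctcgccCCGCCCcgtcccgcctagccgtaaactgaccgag
Itgb8: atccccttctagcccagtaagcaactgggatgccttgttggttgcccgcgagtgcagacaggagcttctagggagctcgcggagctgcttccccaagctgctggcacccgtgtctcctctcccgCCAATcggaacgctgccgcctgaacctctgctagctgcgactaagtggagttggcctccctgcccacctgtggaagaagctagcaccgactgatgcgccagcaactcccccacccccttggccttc
The Itgav window held neither motif, the Itgb5 window held 3 GC boxes, and the Itgb8 window held 1 CCAAT box. Of 32851 windows of the same length, 32.7% held a GC box and 33.8% held a CCAAT box. The GC content was 64.4% for Itgav, 65.2% for Itgb5 and 62.4% for Itgb8, against a median of 52.4% over all windows.

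No member probe was up-regulated or down-regulated by irisin treatment at the thresholds of the methods, a change of at least 1.5-fold and an adjusted p under 0.05. The test was limma with Benjamini-Hochberg adjustment over the 24092 probes for which at least 1 group had all 4 arrays well above background, and 12 of 14 member probes, for 9 of 10 genes, passed this filter. Among all tested probes, 0.714% were called higher and 11.7% were called lower. With the adjusted p alone, 1 member probe was higher (Itgav) and 1 was lower (Src), where 2.96% and 21.6% of all probes were. The median change was 0.09 over the 12 member probes and -0.08 over all probes. These arrays measure the RNA of a whole culture, so fewer cells expressing a gene and less of its RNA per cell cannot be told apart.

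**Figure D1:**
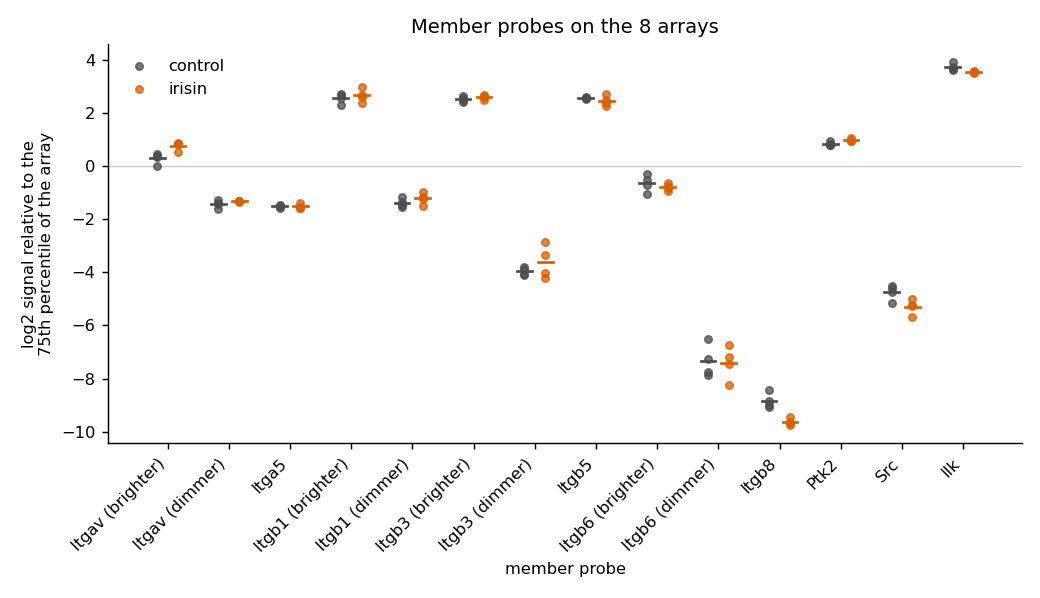
Log2 signal of the 14 member probes on each array relative to the 75th percentile of that array (y axis), with 4 control arrays in grey and 4 irisin arrays in orange and a line at each mean. The groups do not overlap for the brighter Itgav probe, Ptk2, Ilk and Itgb8, and Itgb8 is not above background on any array.

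Itgav encodes the alpha-V chain shared by all the proposed dimers. Its brighter probe stood at 0.45, 0.41, 0.03 and 0.37 on the control arrays and at 0.84, 0.56, 0.90 and 0.84 on the irisin arrays. Every irisin array was above every control array, with irisin replicate 2 the nearest to the controls. The change was 0.47 on the log2 scale, or 1.38-fold, with a standard error of 0.117 and a 95% interval from 0.21 to 0.73 (limma, adjusted p = 0.0135). The exact two-sided permutation test gave p = 0.0286, the smallest that 4 arrays against 4 allow. Ranked with its sign, the change was above that of 98.1% of tested probes, of which 11.7% were called lower. It was under the 1.5-fold threshold, which is 0.58 on the log2 scale. Leaving out each array in turn gave changes from 0.37 to 0.54 with adjusted p from 0.0056 to 0.0432 in limma. With normexp background correction the change was 0.38 and the adjusted p in limma was 0.266.

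The dimmer Itgav probe did not pass the test. It stood at -1.37, -1.43, -1.27 and -1.60 on the control arrays and at -1.29, -1.32, -1.31 and -1.33 on the irisin arrays, and the groups overlapped. Its change was 0.11 with a 95% interval from -0.09 to 0.30 (limma, adjusted p = 0.449). The difference between both Itgav probes within an array was 0.36 larger on the irisin arrays, with an interval from -0.05 to 0.77 (exact permutation test, p = 0.0571, adjusted p = 0.114 over 8 such differences).

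Itga5, the alpha chain of the classical fibronectin receptor, did not pass the test. It stood at -1.48, -1.51, -1.45 and -1.57 on the control arrays and at -1.55, -1.40, -1.54 and -1.55 on the irisin arrays. The change was -0.01 with a 95% interval from -0.18 to 0.16 (limma, adjusted p = 0.962). At this scaling the interval lies within 1.5-fold in both directions.

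Among the beta chains, none passed the test. Itgb5, the partner named most often in the proposed irisin receptor, stood at 2.57, 2.54, 2.56 and 2.61 on the control arrays and at 2.39, 2.73, 2.26 and 2.49 on the irisin arrays. The values without irisin lay close together, and those with irisin spread on both sides of them. The change was -0.10 with a 95% interval from -0.33 to 0.13 (limma, adjusted p = 0.547).

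Itgb1, which pairs with many alpha chains, stood at 2.68, 2.73, 2.60 and 2.31 on the control arrays and at 2.98, 2.40, 2.71 and 2.64 on the irisin arrays. Its change was 0.10 with an interval from -0.19 to 0.40 (limma, adjusted p = 0.657). The dimmer Itgb1 probe changed by 0.16 with an adjusted p in limma of 0.449, and the groups overlapped for both probes.

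Itgb3, the vitronectin receptor partner also found on platelets, stood at 2.49, 2.44, 2.64 and 2.57 on the control arrays and at 2.64, 2.65, 2.50 and 2.70 on the irisin arrays. The change was 0.09 with an interval from -0.10 to 0.27 (limma, adjusted p = 0.528). Its dimmer probe had values from -4.09 to -3.81 on the control arrays and from -4.22 to -2.86 on the irisin arrays, with a change of 0.35 and an interval from -0.21 to 0.91. Leaving out irisin replicate 2 brought this change to 0.098, and leaving out irisin replicate 1 brought it to 0.55. That probe turned to -0.18 with the normexp correction added after seeing the data.

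Itgb6, a mainly epithelial chain that takes part in TGF-β activation, stood at -0.28, -0.53, -1.04 and -0.71 on the control arrays and at -0.74, -0.63, -0.91 and -0.82 on the irisin arrays. Its change was -0.13 with an interval from -0.46 to 0.19 (limma, adjusted p = 0.592). The other Itgb6 probe was well above background on 1 array and was not tested.

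Itgb8, which also takes part in TGF-β activation, was not well above background on any array. Its signal was 1.06, 1.06, 0.992 and 0.978 on the control arrays and 0.999, 0.975, 0.983 and 0.982 on the irisin arrays, where the median of the negative control spots was 0.992 and 1.00. Relative to the 75th percentile these same signals give -8.45 to -9.07 on the control arrays and -9.45 to -9.76 on the irisin arrays, so that the groups stand apart through the percentile alone, and no fold is given.

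**Figure D2:**
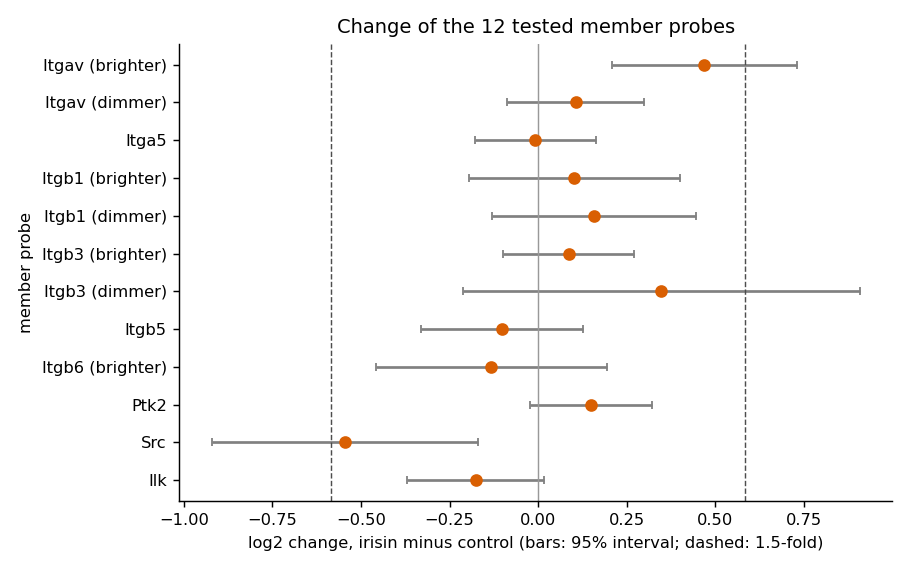
Log2 change between irisin and control arrays for the 12 tested member probes (x axis), with 95% intervals and dashed lines at 1.5-fold. Itgav (0.47, brighter probe) and Src (-0.55) have intervals that leave out 0, and 9 of 12 intervals lie within the 1.5-fold lines.

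Of the kinases, Ptk2 encodes focal adhesion kinase, which is recruited to clustered integrins. It stood at 0.95, 0.80, 0.83 and 0.79 on the control arrays and at 1.07, 0.98, 0.96 and 0.95 on the irisin arrays. All irisin arrays were above all control arrays, by a margin of less than 0.01 at the closest pair. The change was 0.15 with an interval from -0.02 to 0.32 (limma, adjusted p = 0.213).

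Src encodes the tyrosine kinase that acts with focal adhesion kinase. It stood at -4.60, -4.52, -4.74 and -5.16 on the control arrays and at -5.01, -5.25, -5.70 and -5.24 on the irisin arrays, and the groups overlapped through control replicate 4. The change was -0.55 with an interval from -0.92 to -0.17 (limma, adjusted p = 0.0385), and the exact permutation p was 0.0571. The probe is dim, with signals from 13.9 to 21.2 on the control arrays and from 15.5 to 24.7 on the irisin arrays, and with no scaling its change was 0.19 (limma, adjusted p = 0.341). With quantile normalization it was -0.21 (limma, adjusted p = 0.479). Leaving out control replicate 4 gave -0.68 and leaving out irisin replicate 1 gave -0.64, and with either left out Src passed both thresholds in limma. Leaving out any of the other 6 arrays gave an adjusted p in limma from 0.0545 to 0.103, so that Src then passed neither threshold.

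Ilk, which joins beta chains to actin through parvins, stood at 3.68, 3.75, 3.94 and 3.63 on the control arrays and at 3.53, 3.58, 3.58 and 3.60 on the irisin arrays. All irisin arrays were below all control arrays. The change was -0.18 with an interval from -0.37 to 0.02 (limma, adjusted p = 0.184). The groups thus did not overlap for 3 of 12 tested member probes, with Itgav and Ptk2 above and Ilk below, where 4.17% of all tested probes had every irisin array above the controls and 22.9% had every irisin array below them.

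The balance of alpha-V against its beta partners and against Itga5, another alpha chain, was compared within each array. Such a difference does not depend on the scaling by a percentile. Itgav minus Itgb6 was 0.96 ± 0.161 (SD, n = 4) without irisin and 1.56 ± 0.266 (SD, n = 4) with it. The difference between the groups was 0.60 with an interval from 0.22 to 0.98, and the groups did not overlap. Itgav minus Itga5 differed by 0.48 between the groups, also without overlap. Itgav minus Itgb5 differed by 0.57, Itgav minus Itgb3 by 0.38 and Itgav minus Itgb1 by 0.37, and in these the groups overlapped. The exact permutation p was 0.0286 for Itgb6 and Itga5 and from 0.0571 to 0.0857 for the others, and over the 8 differences the adjusted p was 0.114 for each of these 5, so that none passed the correction. All 5 rest on the brighter Itgav probe. These differences were chosen after seeing the data.

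**Figure D3:**
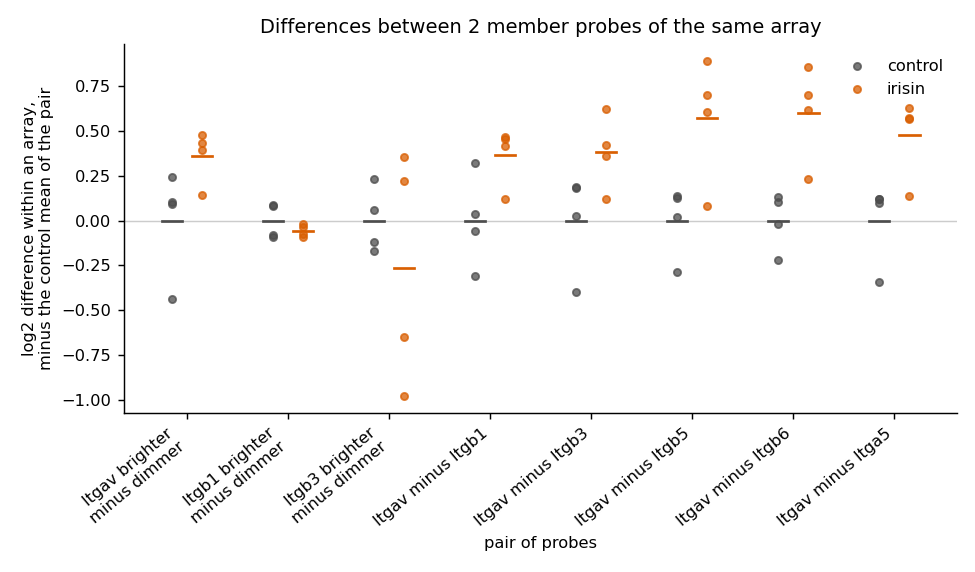
Log2 difference between 2 member probes on the same array, with the control mean of each pair set to 0 (y axis), for 4 control arrays (grey) and 4 irisin arrays (orange) with a line at each mean. Itgav minus Itgb6 (0.60) and Itgav minus Itga5 (0.48) are the pairs whose groups do not overlap.

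The number of members called changed with the scaling between arrays. With quantile normalization, cyclic loess or the median of the detected probes, 0 member probes passed both thresholds in limma. With scaling to the spike-in probes 7 of 12 passed, all higher, where 7872 of all 24092 tested probes were called higher. With no scaling 10 of 12 passed, all higher, where 14920 of 24092 were called higher. The median over all tested probes moved as well. With the spike-in probes the median change was 0.67 for the member probes and 0.50 for all probes, and with no scaling it was 0.83 and 0.66. Itgb5, Itgb6, Ilk, Src and Itga5 turned from a negative to a positive change with these 2 scalings. The brighter Itgav probe was positive in all of them, from 0.45 with cyclic loess to 1.21 with no scaling.

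**Figure D4:**
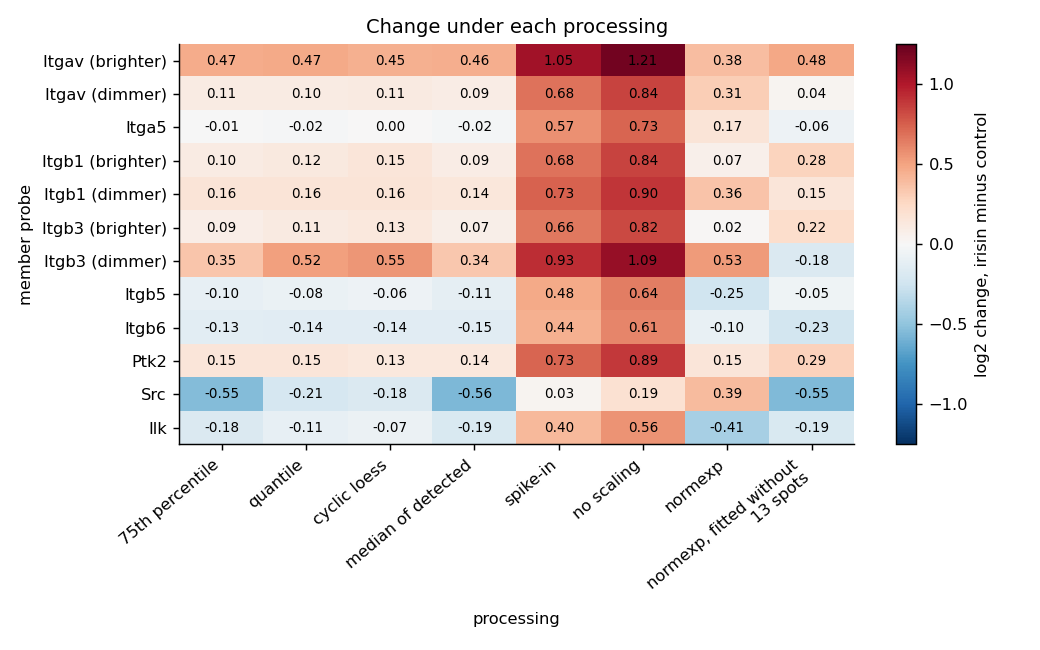
Log2 change of the 12 tested member probes (rows) under 8 ways of processing (columns), printed in each cell and colored from blue (lower with irisin) to red (higher). The spike-in and no scaling columns are positive throughout, and the row of the brighter Itgav probe is positive in every column.

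The genes whose values over the 8 arrays were nearest to those of Itgav, by the root mean square difference after centring, were Fbxo3 (0.0512), Tubgcp5 (0.0560) and Itprid2 (0.0663) among 13704 genes. For Itgb5 they were Iscu (0.0242), Pelo (0.0244) and Psmg1 (0.0259). The likeness describes 8 arrays and was not tested.

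Genes that work with the members were counted in 6 lists. Each gene was represented by its probe of highest mean signal, and of 14311 tested genes 0.531% were called higher and 10.2% lower, while with the adjusted p alone 2.65% were higher and 17.9% were lower. The median change of all tested genes was -0.06. In the 6 lists 74 of 93 genes were tested, 1 was called lower and none higher, and with the adjusted p alone 4 were higher and 11 were lower.

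Of 19 other integrin subunits, 11 were tested and none was called, with a median change of -0.09. Those with the largest changes were chains of leukocyte integrins. Itgb2 changed by -0.47, Itgal by -0.43 and Itgam by -0.43, with adjusted p of 0.0173, 0.0320 and 0.0395 in limma. Of 5 macrophage and leukocyte markers 1 was tested, Cd68, which changed by 0.01. The other 4 were too dim to be tested, and their mean values relative to the 75th percentile were all lower on the irisin arrays. That percentile was 0.74 higher on the log2 scale with irisin, which lowers the value of a signal that stays at background. The part of the percentile in these values was not tested. Clec4f had means of -6.55 without irisin and -8.22 with it, Adgre1 -6.75 and -7.81, and Ptprc -6.54 and -7.05, and they were well above background on 3, 3 and 5 arrays. The groups did not overlap for Clec4f, Adgre1 and Lyz2, with every irisin array below every control array. Among all tested probes, 22.9% had every irisin array below the controls. Lyz2, above background on no array, had means of -8.79 and -9.46. The summed level of all 5 ran from 0.277 to 0.383 of the 75th percentile on the control arrays and from 0.285 to 0.338 on the irisin arrays, most of it from Cd68, and without Cd68 it ran from 0.0301 to 0.0363 and from 0.0117 to 0.0214. The part of these markers in the values of the leukocyte integrins was not tested.

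Of 23 alpha-V ligands and matrix partners, 17 were tested and none was called, with a median change of -0.03. Fga, the alpha chain of fibrinogen, changed by 0.50 (limma, adjusted p = 0.00381). Lrrc32, which anchors latent TGF-β, changed by -0.39 and Ccn2, a secreted matrix protein induced by TGF-β, by -0.38, with adjusted p of 0.0113 and 0.00934 in limma. Fn1, which encodes fibronectin, changed by -0.18 and Vtn, which encodes vitronectin, by 0.18, and neither passed the test.

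Of 16 integrin activators and links to actin, 15 were tested and none was called. Actn4, an actin crosslinker, changed by -0.37 and Tns3, which binds beta tails, by 0.34, with adjusted p of 0.00676 and 0.0234 in limma. Fermt1, a kindlin, changed by 0.37 but did not pass the test (limma, adjusted p = 0.235).

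In the complex around Ilk, 5 of 6 genes were tested and none passed the adjusted p. Lims1, which encodes PINCH, changed by 0.37 with an adjusted p of 0.120 in limma, Parvb by -0.21 and Parva by -0.17.

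Among 25 substrates and adaptors of focal adhesion kinase and Src, 23 were tested. Efs, an adaptor of the p130Cas family, was called lower on the irisin arrays. It stood at -5.24, -5.22, -5.26 and -5.01 on the control arrays and at -6.27, -6.24, -6.45 and -6.19 on the irisin arrays, with no overlap. The change was -1.11 with an interval from -1.31 to -0.90 (limma, adjusted p = 1.0e-04). Efs is dim, and with no scaling it changed by -0.37 and with normexp correction by 0.35, in both without passing the test. With spike-in scaling it changed by -0.53 (limma, adjusted p = 0.0520). It was called lower with the normexp correction added after seeing the data (-0.67), with quantile normalization (-0.68) and with cyclic loess (-0.65). The adjusted p in limma for these ran from 6.5e-05 to 0.0018. Yes1, a Src family kinase, changed by 0.79 but did not pass the adjusted p (limma, 0.0630). Git2, a scaffold of focal adhesions, changed by -0.58 with an adjusted p of 5.5e-04 in limma, just short of 1.5-fold, and Crk, an adaptor of Cas proteins, by 0.55 with 0.00375.

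Fndc5, the precursor of irisin, was not above background on any array. Of the genes listed beside Fndc5, Hsp90aa1 changed by -0.27, Cd81 by -0.15 and Fndc4 by -0.14, and none passed the test.

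**Figure D5:**
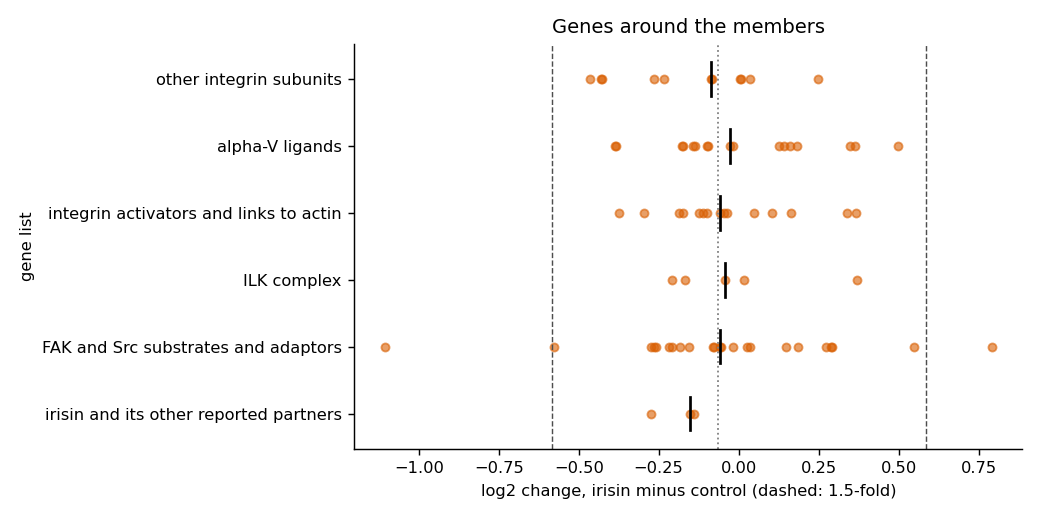
Log2 change of each tested gene (points, x axis) in 6 lists around the members, with a black line at each list median, a dotted line at the median of all tested genes (-0.06) and dashed lines at 1.5-fold. Efs (-1.11) is the gene called lower.

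Markers of other cell types were checked beside these values. Of 5 endothelial markers, Pecam1 was called lower at -0.61, where 10.2% of all tested genes were. Kdr changed by -0.56 (limma, adjusted p = 0.00441), short of 1.5-fold. Pecam1 is dim, with means of -4.46 without irisin and -5.07 with it. Stab2, above background on 2 arrays and not tested, had means of -7.77 without irisin and -7.32 with it. Cdh5 and Tek were not above background on any array. The 75th percentile to which all these values are relative was 0.74 higher on the log2 scale with irisin. The summed level of the endothelial markers ran from 0.701 to 0.788 on the control arrays and from 0.413 to 0.584 on the irisin arrays. Most of that sum came from Kdr. Without Kdr it ran from 0.0493 to 0.0650 on the control arrays and from 0.0339 to 0.0411 on the irisin arrays. Of 6 stellate cell and fibroblast markers, 5 were not above background on any array. Of 4 bile duct markers, Krt19, Sox9 and Krt7 were well above background on all 8 arrays. They changed by -0.07, -0.03 and -0.08 and did not pass the test, and Epcam was too dim to be tested. The summed level of the bile duct markers ran from 42.5 to 50.3 on the control arrays and from 41.1 to 48.0 on the irisin arrays. Krt18, a hepatocyte marker, changed by -0.47 (limma, adjusted p = 0.00522), and the summed level of hepatocyte markers ran from 345 to 375 on the control arrays and from 282 to 330 on the irisin arrays. Without Krt18 that sum ran from 161 to 170 on the control arrays and from 150 to 170 on the irisin arrays, the other 8 hepatocyte markers did not pass the test, and the median change of the list was -0.09. Their part in the values of the members was not tested.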

How the data were processed

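AML12 cells, 4 samples with irisin and 4 without, were measured on one-color arrays and grouped by their deposited labels. The authors labeled RNA with Cy3 and processed the scans with Agilent Feature Extraction 12.0.3.1, which subtracts background and corrects trends. The authors deposited signal intensity on a linear scale, not normalized between arrays. The deposited value table holds the same intensity, averaged over the spots of each probe. From the scanner files, control and marked spots were left out (at most 0.463% of 43020 spots marked), spots of a probe were averaged, and processed signals were put on the log2 scale after division by the 75th percentile of each array. Accessions were matched to the RefSeq table of GRCm38.p6, which named 72.7% of probes, and the files give another build, so no probe positions are printed. Irisin and control were compared with limma 3.58.1 (lmFit, eBayes) in R 4.3.3 with the thresholds of the methods, and by exact permutation (two-sided, 70 ways to assign the arrays). The fit was tested on simulated data.

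The members and lists were chosen with earlier results of these data known. All members are named with every probe, and of the 6 lists each called gene and the 3 largest changes among genes above background on all 8 arrays. Fn1, Vtn, Crk, Itgb7 and the cell type markers named singly were chosen after their values were seen. Alternatives were normexp background correction (offset 50, on the median spot signal), quantile normalization, cyclic loess, scaling to the median of detected probes or to 8 spike-in probes, no scaling, the value table, other filters, marked spots kept, other variance models, a replicate block, other thresholds, and each array left out. The planned normexp fit was moved by 8 spots on irisin replicate 2 and 5 on irisin replicate 4 that lie more than 50 units under their local background (fitted background means of -306 and -395, against -10.7 to -8.06 on the other 6 arrays), so a normexp fit without these spots was added after seeing the data.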

Additional observations from a re-analysis of the deposited data

Results flagged for a closer look

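Itga5 was flagged because irisin replicate 2 stood apart from the other irisin arrays, at -1.40 against -1.55 to -1.54. The number of spots marked as outliers stood apart on irisin replicate 1, with 135 marked against 95 to 99 on the other irisin arrays. These came from 30 groups of 4 arrays that were examined, and chance marks about 1 in 20 groups.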

How the results depend on the processing

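Of the 3 counts, 2987 probes were called in all, 0 of them members and 1 in the 6 lists. For all probes the count was 0 with normexp correction, 1691 with quantile normalization, 1619 with cyclic loess, 8233 with spike-in scaling, 15082 with no scaling, 12934 with no filter, 5909 with the adjusted p alone and 800 at 2-fold. For member probes it was 7 with spike-in scaling, 10 with no scaling, 1 with no filter (Itgb8, at the level of negative controls) and 2 with the adjusted p alone. For the lists it was 0 with normexp, 2 with the added normexp fit, 4 with quantile normalization, 5 with cyclic loess, 2 with the detected median, 26 with spike-in scaling, 49 with no scaling, 11 with no filter, 15 with the adjusted p alone and 2 with the mean over probes. Leaving out 1 array gave 2790 to 3438 for all probes, 0 to 1 for members and 1 to 4 for the lists.

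Of the called probes, the share that was higher was 5.76% with the percentile, 39.6% with quantile normalization and 42.7% with cyclic loess. It was 95.6% of the called probes on the spike-in scale and 98.9% unscaled. The replicate block gave 3004 probes and 0 members, and the replicate numbers did not pair the samples, with correlations of 0.11, -0.35, -0.13 and 0.17.

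Under spike-in scaling and without scaling the change turned positive for Itga5 (0.57 and 0.73), Itgb5 (0.48 and 0.64), Itgb6 (0.44 and 0.61), Src (0.032 and 0.19) and Ilk (0.40 and 0.56). The planned normexp fit turned Itga5 to 0.17 and Src to 0.39, and cyclic loess turned Itga5 to 0.00034. With the added normexp fit Itga5 was at -0.061 and Src at -0.55 (limma, adjusted p = 1.97e-04 for Src), and the dimmer Itgb3 probe turned to -0.18. Leaving out 1 array gave -0.045 to 0.010 for Itga5. The same 2 scalings brought past both thresholds Itgav (1.05 and 1.21, dimmer 0.68 and 0.84), Itgb1 (0.68 and 0.84, dimmer 0.73 and 0.90), Itgb3 (0.66 and 0.82, dimmer 0.93 and 1.09) and Ptk2 (0.73 and 0.89). The cause was not tested.

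With the planned normexp fit no probe of 24092 was called, and the brighter Itgav probe lost its adjusted p (0.266), while the added fit gave 0.48 with 0.00125 in limma and 2486 called probes. The added fit also brought the adjusted p of Ptk2 to 0.00797, at a change of 0.29. Of the within-array differences, 171 values moved by less than 1 SD and 5 moved by more, all under a normexp fit. Dim probes such as Src lie near background, which limits what the arrays resolve.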
